A study of Mus musculus with 6 samples.

Results

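The 8 genes Pdx1, Nkx6-1, Nkx2-2, Mnx1, Pax4, Mafa, Mlxipl and Ucn3, all of the insulin-producing beta cell lineage, were read in whole pancreas of mouse embryos at e16.5. They were taken by symbol, and all 8 were found among the 54735 gene symbols of the tables. The group is named for transcription factors, which 7 of the genes encode, whereas Ucn3 encodes a secreted peptide. RNA was sequenced from 3 pancreata labelled Neurog3:cre;RARdnfl/fl (RARdn) and from 3 labelled Neurog3:cre (control). All 6 therefore carried the cre driver of Neurog3, the gene of endocrine progenitors, on a mixed C57Bl6/129SV background, and the RARdn pancreata also carried a floxed allele that is homozygous by its label. RARdn is the usual abbreviation for a dominant-negative retinoic acid receptor, which the labels do not spell out. The study's title places the question in retinoic acid signalling and islet cell specification. Recombination by such a driver is limited to cells that have made Neurog3, a minor part of the dissected organ, so most RNA in each sample came from other cells. In such bulk samples, fewer cells of a type and less RNA per cell cannot be told apart.

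Beta cells arise from progenitors that switch on Neurog3. Pdx1 and Nkx6-1 mark the multipotent epithelium and are kept in beta cells, Nkx2-2 acts in the endocrine lineage, and Pax4 favours beta and delta fates. Mnx1 maintains beta cell identity. Mafa, which rises as beta cells mature, and Mlxipl (ChREBP, a glucose-responsive factor) act later. Ucn3, urocortin 3, is a late marker of mouse beta cells, and its peptide acts through the receptor Crhr2 on delta cells.

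Homeodomain proteins are encoded by 5 of the 8 genes, and a stretch of the coding sequence of 3 of them is shown because it is what they share. The segments are from GENCODE M21 transcripts, on the coding strand, and the capitals mark 18 bases, the codons for the homeodomain's tryptophan, phenylalanine, asparagine and arginine with a variable codon before each of the last pair.
Pdx1: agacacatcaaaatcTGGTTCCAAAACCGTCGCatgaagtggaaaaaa
Mnx1: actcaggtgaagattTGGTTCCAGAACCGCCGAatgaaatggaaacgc
Pax4: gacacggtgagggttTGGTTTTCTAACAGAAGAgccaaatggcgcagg
Pdx1 and Mnx1 were identical at 15 of the 18 capital bases. Pax4, a paired-type homeodomain protein, shared 10 of the 18 with Pdx1 and 11 with Mnx1. The segments were found by searching for these codons, so part of the identity among the capitals was set in advance. Over all 48 bases, Pdx1 and Mnx1 were identical at 34, and Pax4 shared 19 with Pdx1 and 26 with Mnx1.

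None of the 8 genes passed the test between RARdn and control pancreas over all genes (edgeR's quasi-likelihood test, adjusted p under 0.05). Of all 19070 genes tested, 4.02% passed, 1.37% as higher and 2.65% as lower in RARdn. All 8 were among the genes tested, 6 had a log2 fold change below 0, and 2, Pax4 and Ucn3, had one above 0. Over all genes tested, 9527 had one below 0 and 9543 above 0. For the 8 genes, the direction alone was not tested. Their median log2 fold change was -0.25, against 0.000513 over all genes tested. Of the 8, 1 gene, Ucn3, had an unadjusted p under 0.05, as did 22.2% of all genes, and DESeq2 called 0 of the 8, where it called 10.2% of all genes, 5.1% higher and 5.1% lower. The labels do not say whether the samples of a group came from separate litters or days, and p-values here cover no more than the spread among the samples, which may be technical.

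The RARdn libraries did not act as a uniform group for these genes. All 8 were higher in RARdn 1 than in RARdn 2 and RARdn 3, a pattern shown by 35.7% of all genes tested. In RARdn 2 and in RARdn 3 the same 6 genes lay below every control, and Ucn3 lay above every control. Among all genes tested, 19.8% lay below and 19.2% above the controls in both. In RARdn 1, none of the 8 lay below every control and 3 lay above every control (Nkx6-1, Pax4 and Ucn3), against 36.4% and 36.8% of all genes. In the description labels, RARdn 2 and RARdn 3 share a leading number that RARdn 1 lacks, which the labels do not explain.

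**Figure D1:**
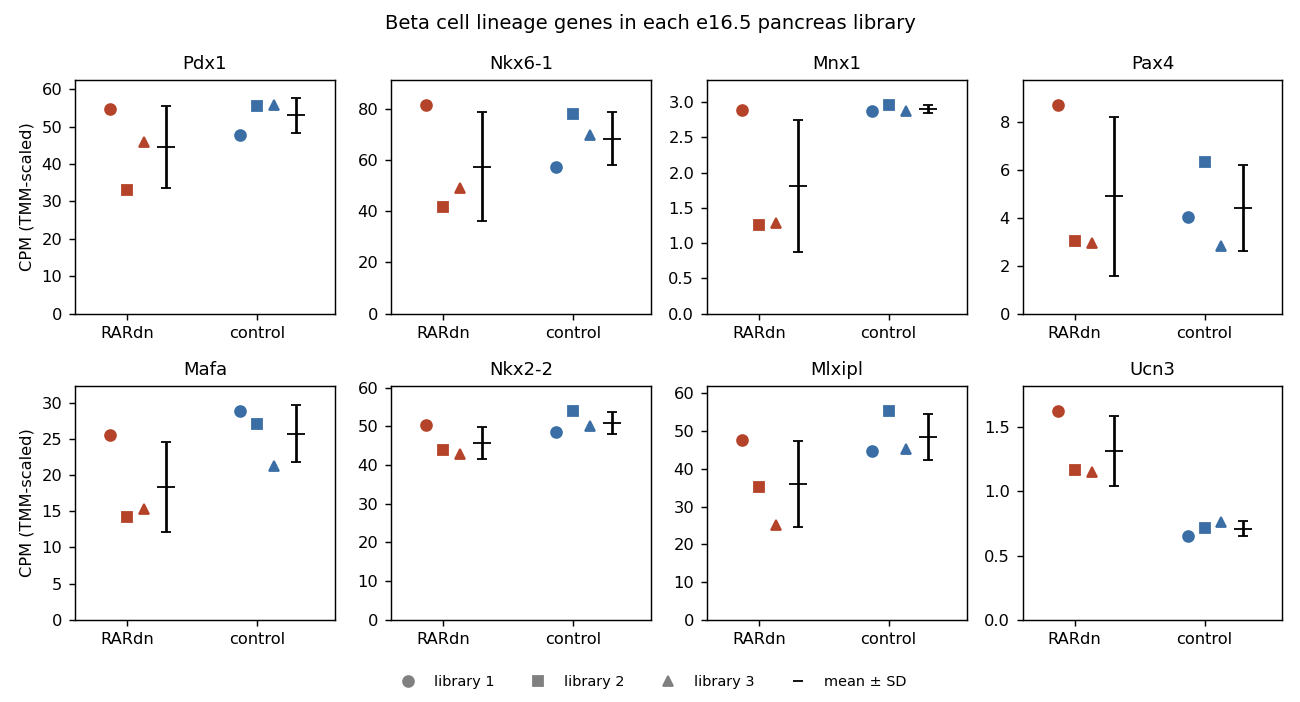
Level of each of the 8 genes, in CPM after TMM scaling, in 3 RARdn libraries (left of each panel) and 3 control libraries (right); symbols mark the replicate number and bars show mean ± SD. RARdn 1 lies above RARdn 2 and RARdn 3 in every panel, and only Ucn3 has groups that do not overlap.

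These library facts stand beside every result below. Counts in genes ranged from 35256531 to 52015498 in RARdn libraries and from 38572573 to 44735721 in controls. The acinar list took 7.20%, 21.8% and 26.8% of counts in RARdn 1, 2 and 3, against 17.6% to 18.98% in controls. Summed over 29 pan-endocrine genes, the level in RARdn 1, 2 and 3 lay at log2 0.15, 0.0048 and 0.23 relative to the control mean. The neural list lay at 0.45, -0.67 and -0.44 in the same order, and the liver list at 1.04, 0.13 and 0.027. The summed mesenchyme list lay above the control mean in all 3 RARdn libraries, at 0.50, 0.69 and 0.55. Of its 20 genes, 11 had an unadjusted p under 0.05, all higher in RARdn. Mitochondrial genes took 5.23%, 4.54% and 2.38% of counts in RARdn 1, 2 and 3, and 2.35% to 2.46% in controls. The liver transcript Alb was at 597, 137 and 3.19 CPM in RARdn 1, 2 and 3, and at 1.18 to 2.92 CPM in controls. Ribosomal RNA genes took 0.0779% to 0.0931% of counts in RARdn libraries and 0.921% to 0.979% in controls. Xist, the transcript of the inactive X chromosome, was at 1158 and 1118 CPM in control 1 and control 3 and at 0.312 CPM or less in the other libraries, so the sexes were unequal between groups. A fit with a term for Xist therefore compares the RARdn libraries with control 2 alone, and cannot separate sex from the level of that library. For that fit log2 values are given. The part of these differences in the results was not tested beyond the fits named here.

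**Figure D2:**
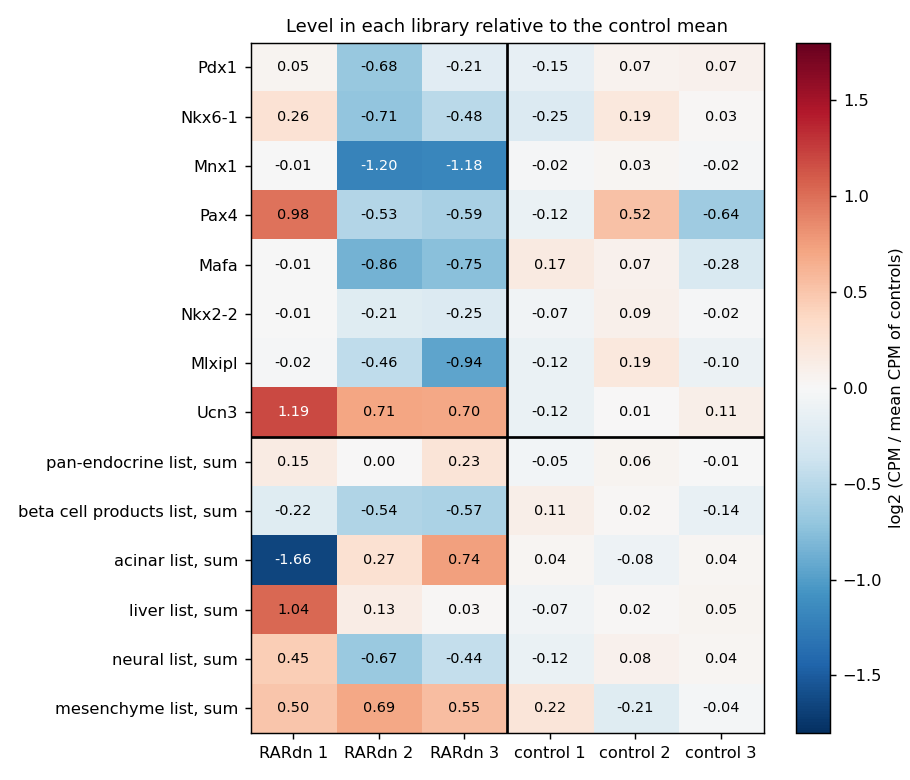
Heat map of log2 level relative to the control mean in each library, RARdn to the left, for the 8 genes (upper block) and for the summed CPM of 6 marker lists (lower block). Mnx1 reads -1.20 and -1.18 in RARdn 2 and RARdn 3 but -0.0062 in RARdn 1, while the acinar sum reads -1.66 in RARdn 1.

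Pdx1 and Nkx6-1, the early epithelial and beta cell homeodomain factors, differed by less than the spread among RARdn libraries. Pdx1 (chromosome 5, 147269959 to 147275848, plus strand, GRCm38) was at 54.8, 33.1 and 45.9 CPM (counts scaled to library size) in RARdn 1, 2 and 3, against 47.7, 55.5 and 55.9 CPM in the controls. RARdn 2 and RARdn 3 were below every control, and RARdn 1 lay within the control range. The log2 fold change was -0.25 (SE 0.17, edgeR adjusted p = 0.428), and the 95% interval of the fold ran from 0.641 to 1.102. Nkx6-1 (chromosome 5, 101658139 to 101664996, minus strand) was at 81.5, 41.7 and 48.9 CPM in RARdn 1, 2 and 3, against 57.3, 77.9 and 69.5 CPM in the controls. Here RARdn 1 was the highest of the 6 libraries and RARdn 2 the lowest. Its log2 fold change was -0.25 (SE 0.23, edgeR adjusted p = 0.575), with an interval of the fold from 0.581 to 1.22. Nkx6-1 per Pdx1 count was 1.27 ± 0.211 in RARdn libraries and 1.28 ± 0.106 in controls (SD, n = 3 each, 2-sided exact permutation p = 1).

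Pdx1 overlaps the antisense gene Plut. With the strand setting of the counting not given in the sources used here, reads of the pair cannot be told apart. Plut was counted at 6.58, 6.25 and 3.92 CPM in RARdn 1, 2 and 3, and at 10.47, 10.9 and 8.59 CPM in controls. The groups did not overlap for Plut, and its test did not pass (log2 -0.83, SE 0.22, edgeR adjusted p = 0.0710). Plut was called lower by DESeq2 (adjusted p = 0.00482). It was also called by edgeR without a filter (0.0160), without RARdn 3 (0.0382) and with the replicate number as a block (0.0369). Over the alternatives other than the Xist term its adjusted p was at most 0.244.

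Nkx2-2, which endocrine progenitors and beta cells need, varied least of the 8 genes among the RARdn libraries. It lies on chromosome 2 (147177546 to 147194243, minus strand) and was at 50.3, 43.8 and 42.9 CPM in RARdn 1, 2 and 3, against 48.5, 53.95 and 50.03 CPM in the controls. RARdn 2 and RARdn 3 were below all controls, and RARdn 1 lay among them. The log2 fold change was -0.15 (SE 0.09995, edgeR adjusted p = 0.402), and the interval of the fold, 0.768 to 1.05, was the narrowest of the 8 on either scale. Relative to the pan-endocrine sum, Nkx2-2 was at 17.6 ± 1.98 counts per 1000 in RARdn libraries and 21.3 ± 0.398 in controls, with no overlap (SD, n = 3 each, exact permutation p = 0.1, the smallest that 3 against 3 can give). Nkx2-2 overlaps the antisense genes Nkx2-2os and 6430503K07Rik, counted at no more than 1.04 and 10.1 CPM in any library, and carries the same doubt on strand.

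Pax4 and Mnx1 are needed for the beta cell fate at and after endocrine commitment, and neither passed the test. Pax4 (chromosome 6, 28442334 to 28449353, minus strand) was at 8.70, 3.04 and 2.93 CPM in RARdn 1, 2 and 3, against 4.05, 6.33 and 2.82 CPM in the controls. RARdn 1 was the highest of the 6 and the groups overlapped. Its log2 fold change was 0.16 (SE 0.46, edgeR adjusted p = 0.870), with an interval of the fold from 0.544 to 2.30, the widest of the 8 on the log2 scale. The sign rested on single libraries, with log2 -0.53 without RARdn 1 and -0.073 without control 3, neither of them called. The log2 fold change was -0.36 with a term for Xist, which leaves control 2, the control with the most Pax4, as the only comparator.

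Mnx1 (chromosome 5, 29473034 to 29478470, minus strand) was at 2.89, 1.26 and 1.28 CPM in RARdn 1, 2 and 3, against 2.87, 2.96 and 2.87 CPM in the controls. These are raw counts of 169, 64 and 39 in RARdn libraries and of 110, 133 and 124 in controls. The controls lay within a factor of 1.03 of each other, RARdn 1 was at their level, and RARdn 2 and RARdn 3 were below all of them. The log2 fold change over all 6 libraries was -0.66 (SE 0.34, edgeR adjusted p = 0.296), with an interval of the fold from 0.368 to 1.08. Without RARdn 1, Mnx1 was called lower (log2 -1.16, SE 0.24, edgeR adjusted p = 0.0415), where 4% of all genes were called, 2.34% as lower and 1.66% as higher. Per 1000 pan-endocrine counts, Mnx1 was at 1.095, 0.528 and 0.459 in RARdn 1, 2 and 3, and at 1.25, 1.20 and 1.21 in controls. All RARdn libraries were lower on this scale (exact permutation p = 0.1).

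The 250 bases before the start of Mnx1 are shown because this gene had the most even controls and the lowest fitted fold change of the 8. The sequence is RefSeq's for GRCm38.p6, chr5:29478471-29478720 on the minus strand, written 5′ to 3′, with matches to the E-box CANNTG in capitals.
Mnx1: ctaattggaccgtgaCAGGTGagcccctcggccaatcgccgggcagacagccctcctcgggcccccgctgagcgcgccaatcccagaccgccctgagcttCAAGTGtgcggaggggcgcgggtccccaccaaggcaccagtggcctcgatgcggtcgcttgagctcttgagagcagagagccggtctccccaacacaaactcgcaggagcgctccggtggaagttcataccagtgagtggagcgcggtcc
It holds 2 matches, and 66.2% of all 32851 RefSeq windows of this length hold at least 1. The homeodomain core TAATTA and AGGTCA, a motif that retinoic acid receptors bind, searched on both strands, were not in this window. They were in 4.84% and 14.02% of all windows.

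Mafa and Mlxipl belong to later steps of beta cell differentiation, and both had fold changes below 0 that did not pass. Mafa (chromosome 15, 75745490 to 75748228, minus strand) was at 25.6, 14.2 and 15.3 CPM in RARdn 1, 2 and 3, against 28.9, 27.1 and 21.3 CPM in the controls. RARdn 2 and RARdn 3 were below all controls and RARdn 1 within their range. The log2 fold change was -0.48 (SE 0.23, edgeR adjusted p = 0.252), with an interval of the fold from 0.4996 to 1.02. Without RARdn 1 it was called lower (log2 -0.78, SE 0.16, edgeR adjusted p = 0.0376). Mnx1 and Mafa were the 2 of the 8 genes called in that comparison.

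Mlxipl (chromosome 5, 135089890 to 135138382, plus strand) was at 47.7, 35.2 and 25.1 CPM in RARdn 1, 2 and 3, against 44.7, 55.4 and 45.2 CPM in the controls. RARdn 3 was the lowest and RARdn 1 lay among the controls. The log2 fold change was -0.42 (SE 0.21, edgeR adjusted p = 0.274), with an interval of the fold from 0.536 to 1.04. Without RARdn 1 it was -0.66 (SE 0.16, edgeR adjusted p = 0.0555). Liver also transcribes Mlxipl, and the liver transcript Alb had the same order over the RARdn libraries, highest in RARdn 1 and lowest in RARdn 3. The part of liver RNA in the Mlxipl level was not tested.

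Of 12 tested genes that Mlxipl is known to drive in liver or fat, 1 rose, none fell, and the median log2 fold change was -0.094. The gene that rose was Scd1, a fatty acid desaturase, at 16.4, 16.4 and 17.4 CPM in RARdn 1, 2 and 3 and 10.6, 6.66 and 10.97 CPM in controls (log2 0.83, SE 0.19, edgeR adjusted p = 0.0497). It was not called without RARdn 1 or 2 or control 1, 2 or 3 (edgeR adjusted p from 0.0574 to 0.120). The call was also lost with RLE scaling, pan-endocrine scaling, at least 1 CPM in 3 libraries and protein-coding genes alone (0.0502 to 0.0939). With the Xist term, against control 2 alone, the Scd1 log2 fold change was 1.33. Its more abundant relative Scd2 had log2 -0.42 (edgeR adjusted p = 0.463).

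**Figure D3:**
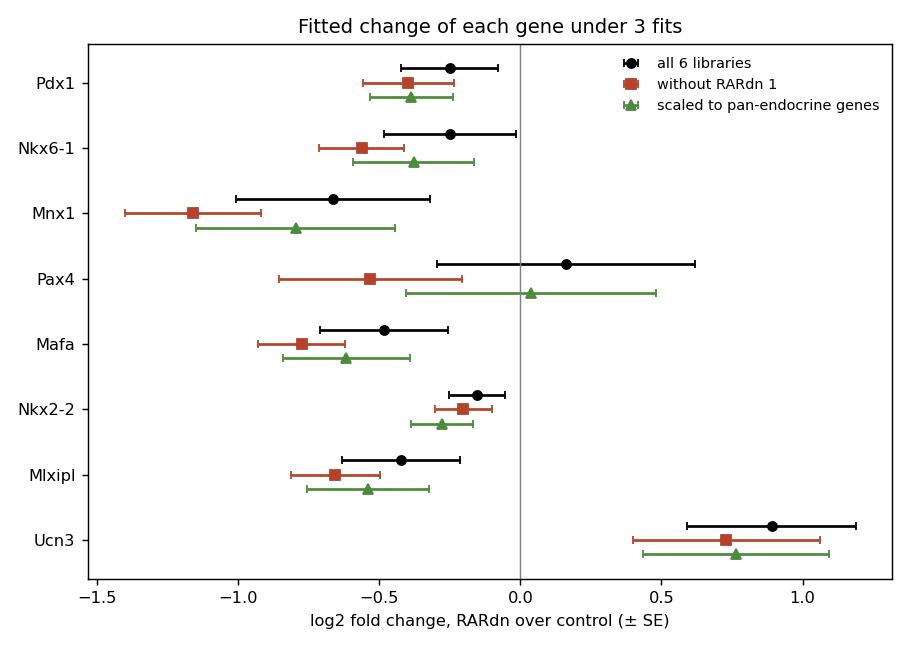
Fitted log2 fold change of RARdn over control (± SE) for each gene with all 6 libraries, without RARdn 1, and with libraries scaled to the pan-endocrine genes. Without RARdn 1 the values of the 7 transcription factor genes all lie below 0 and Mnx1 reaches -1.16, while Ucn3 stays above 0 in each fit.

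Ucn3 was the member whose groups did not overlap. It lies on chromosome 13 (3940688 to 3945349, minus strand) and was at 1.62, 1.16 and 1.15 CPM in RARdn 1, 2 and 3, against 0.653, 0.713 and 0.764 CPM in the controls. Raw counts were 95, 59 and 35 in RARdn libraries and 25, 32 and 33 in controls. It was higher in 3 of 3 RARdn libraries, as were 13.9% of all genes tested. None of the 8 was lower in all 3 without overlap, as 13.7% of all genes were. The fold was 1.85 with an unadjusted 95% interval from 1.16 to 2.97 (log2 0.89, SE 0.30), and it did not pass over all genes (edgeR adjusted p = 0.1303). Over 16 alternative fits the log2 value stayed between 0.73 and 0.98. In those other than the Xist term the adjusted p ran from 0.0742 to 0.350.

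Ins1 and Ins2, the mouse insulin genes, lay lower in the same libraries in which Ucn3 lay higher. Ins2 was at 776, 636 and 594 CPM in RARdn 1, 2 and 3, and at 1388, 1180 and 1049 CPM in controls. It fell by 0.85 on the log2 scale (SE 0.18, edgeR adjusted p = 0.0431), a call lost without RARdn 2 or control 1, 2 or 3 (0.0930 to 0.163). It was also lost with the replicate number as a block (0.0541), with at least 1 CPM in 3 libraries (0.0623) and among protein-coding genes alone (0.0684). With the Xist term, against control 2 alone, the Ins2 log2 fold change was -0.82. Ins1 was at 415, 390.03 and 332 CPM in RARdn 1, 2 and 3 and at 653, 575 and 488 CPM in controls (log2 -0.59, edgeR adjusted p = 0.0832). The 2 genes are near copies whose reads the counting could split, so their sum was used. Ucn3 per 1000 insulin counts was 1.36, 1.13 and 1.24 in RARdn 1, 2 and 3, against 0.320, 0.406 and 0.497 in the controls. The RARdn ratios were all above the control ratios and varied little, with a mean fold of 3.10 (exact permutation p = 0.1). Per 1000 pan-endocrine counts Ucn3 was at 0.505 ± 0.103 in RARdn libraries and 0.298 ± 0.0209 in controls (SD, n = 3 each), again with no overlap.

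The 250 bases before the Ucn3 start are shown because it is the member with separate groups. They are RefSeq's for GRCm38.p6, chr13:3945350-3945599 on the minus strand, 5′ to 3′, with matches to CANNTG in capitals.
Ucn3: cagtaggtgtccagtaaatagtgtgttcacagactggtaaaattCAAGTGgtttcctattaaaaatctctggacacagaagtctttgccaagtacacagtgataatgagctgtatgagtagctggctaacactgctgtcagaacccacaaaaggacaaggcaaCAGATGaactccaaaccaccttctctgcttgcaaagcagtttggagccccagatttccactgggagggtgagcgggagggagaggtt
The window holds 2 matches, and TAATTA and AGGTCA were not in it. RefSeq windows were matched for 6 of the 8 genes, with 7 windows in all, of which 6 held CANNTG, 1 held TAATTA (an inner start of Mlxipl) and 0 held AGGTCA. For 4 of the 6 genes (Pdx1, Nkx6-1, Nkx2-2 and Mlxipl) a window lay partly or wholly inside the GENCODE gene. Those windows are therefore not purely upstream sequence.

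Of the corticotropin-releasing hormone family to which urocortins belong, 2 of 6 genes were tested and neither passed by edgeR, 1 having an unadjusted p under 0.05. That gene was Crhr2, the receptor that Ucn3 activates, at 7.92, 4.08 and 3.55 CPM in RARdn 1, 2 and 3 and 3.71, 2.29 and 1.85 CPM in controls (log2 0.996, SE 0.37, edgeR adjusted p = 0.159). The groups overlapped, since control 1 was above RARdn 3. Without a filter on low counts and with the replicate number as a block, Crhr2 was called higher (edgeR adjusted p = 0.0378 and 0.0439).

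**Figure D4:**
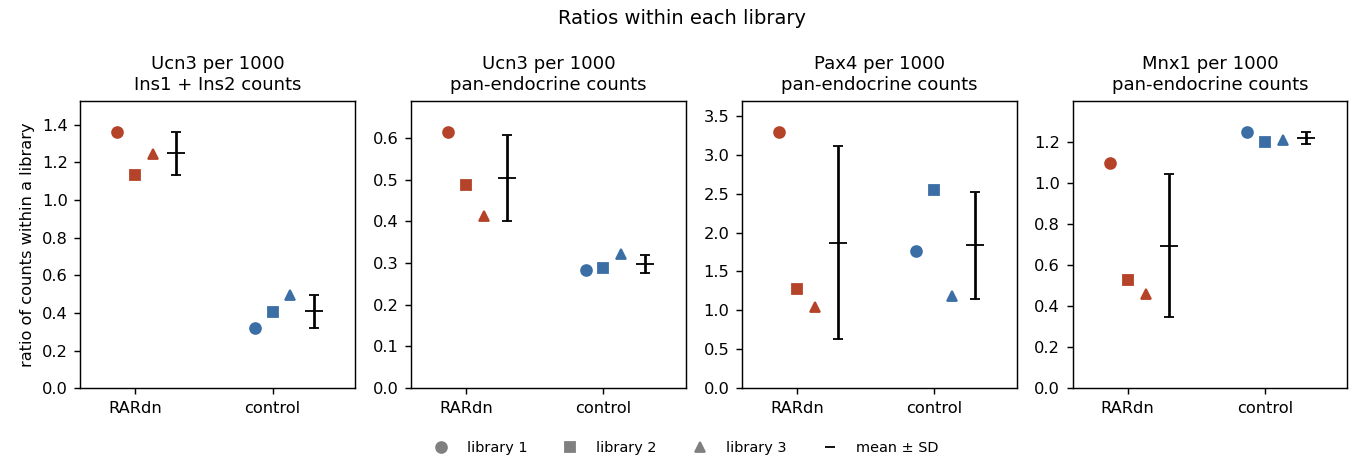
Ratios of counts within each library, with RARdn left of control in each panel and bars showing mean ± SD. Ucn3 per 1000 Ins1 plus Ins2 counts is 1.13 to 1.36 in RARdn and 0.320 to 0.497 in control libraries, whereas Pax4 per 1000 pan-endocrine counts overlaps between the groups.

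Ratios of counts within a library do not depend on the scaling between libraries, and 13 were computed, of which 11 are described. The groups did not overlap in 5 of the 11. Those were Ucn3 per 1000 insulin counts, and Mnx1, Nkx2-2, Mlxipl and Ucn3 per 1000 pan-endocrine counts. Each had the smallest possible exact permutation p, 0.1, or 0.217 adjusted over the 13, so that no ratio could pass in a design of this size. In CPM the groups overlapped for Mnx1, Nkx2-2 and Mlxipl. Their ratios share the pan-endocrine sum, which in RARdn 1 lay at log2 0.15 from the control mean. Of the 29 pan-endocrine genes, 21 had a log2 fold change above 0, with a median of 0.28. The share of all genes without overlap on this scale was not computed. Mlxipl was at 13.9 ± 4.59 per 1000 pan-endocrine counts in RARdn libraries and 20.3 ± 1.81 in controls, and Mafa at 7.04 ± 2.32 and 10.8 ± 1.799 in the same order (SD, n = 3 each).

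Levels of different genes were compared per exon length. In RARdn libraries Pdx1 was at 20.7 ± 5.06 CPM per kb, Nkx6-1 at 18.3 ± 6.76 and Nkx2-2 at 15.9 ± 1.42 (SD, n = 3). In controls the same genes were at 24.6 ± 2.13, 21.7 ± 3.29 and 17.7 ± 0.9747 CPM per kb. These 3 overlapped their neighbours in that order in both groups. Mafa and Mlxipl followed, at 6.70 ± 2.29 and 6.50 ± 2.04 CPM per kb in RARdn libraries and 9.40 ± 1.45 and 8.74 ± 1.09 in controls, overlapping each other but not Nkx2-2. Pax4 was at 3.38 ± 2.28 and 3.04 ± 1.23 CPM per kb in RARdn and control libraries. At the low end, Ucn3 was at 0.889 ± 0.182 and Mnx1 at 0.805 ± 0.415 CPM per kb in RARdn libraries and overlapped. In controls Mnx1, at 1.29 ± 0.0235, stood above Ucn3, at 0.480 ± 0.0377, with no overlap, so their order was reversed on the means.

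**Figure D5:**
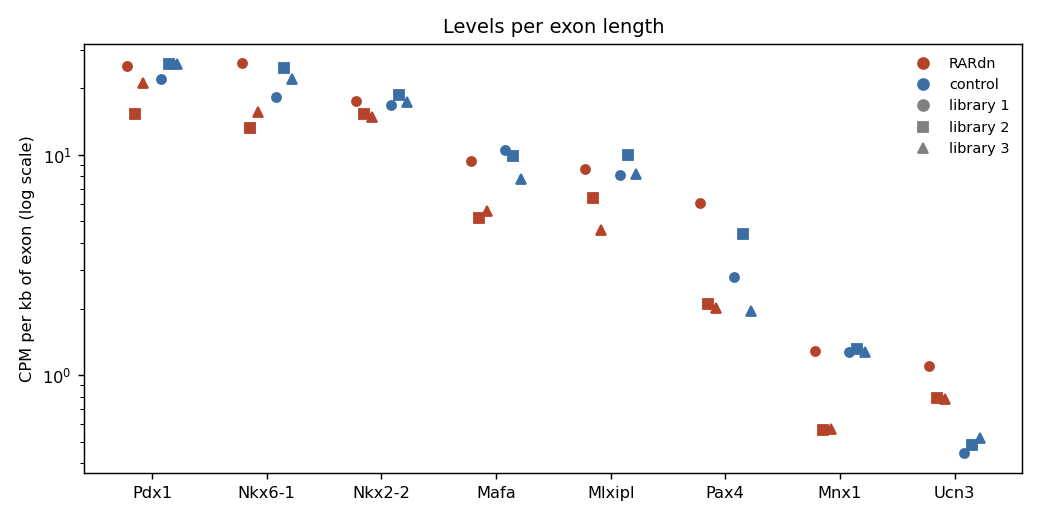
CPM per kb of exon on a log axis for each gene and library, RARdn left of control, ordered by the control mean. Pdx1, Nkx6-1 and Nkx2-2 form the upper group, and Ucn3 is the lowest in controls at 0.480 CPM per kb.

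The genes most alike in pattern were found by the root mean square difference of log2 CPM over the 6 libraries, as a description, among 11643 or 11644 genes averaging 5 CPM or more. No nearest gene stood alone. The number of genes within 2 times the nearest distance ran from 13 for Mnx1 to 205 for Pax4. Nearest to Nkx6-1 was Neurog3, the progenitor factor, at a distance of 0.0948 log2 units. Donson followed at 0.0996 units, 62 genes lay within 2 times the nearest distance, and the median over all genes was 0.392. Neurog3 was at 39.0, 22.3 and 25.8 CPM in RARdn 1, 2 and 3 and at 30.5, 46.6 and 36.0 CPM in controls. Nearest to Mafa was Sytl4, which encodes a docking protein of insulin granules (0.0913 units). It was at 33.5, 19.2 and 19.4 CPM in RARdn 1, 2 and 3 and at 33.1, 33.9 and 29.9 CPM in controls. Nearest to Mnx1 was Cadps, a factor for priming of secretory vesicles (0.102 units). Lrrn1 was nearest to Ucn3, at 47.3, 33.1 and 38.3 CPM in RARdn 1, 2 and 3 and 18.9, 24.8 and 23.3 CPM in controls (0.106 units). The other nearest genes were Nckap1 to Pdx1 (0.0522 units), Cbl to Nkx2-2 (0.0290 units), BC002059 to Mlxipl (0.0716 units) and Jph4 to Pax4, the loosest match (0.233 units). Among the 8 themselves, Pdx1 and Nkx6-1 were the closest pair (0.155 units) and Mnx1 and Ucn3 the farthest (0.838 units).

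Other genes of the pathway were read from fixed lists. Of 25 other endocrine and alpha cell transcription factors, all tested, 2 rose, none fell and the median log2 fold change was -0.027. The one described here is Hhex, a delta cell factor also made in liver, at 36.0, 46.4 and 33.6 CPM in RARdn 1, 2 and 3 and 20.6, 22.3 and 21.0 CPM in controls (log2 0.86, SE 0.13, edgeR adjusted p = 0.0160). Hhex was not called without control 1, 2 or 3 (edgeR adjusted p from 0.0532 to 0.0597). With the Xist term, against control 2 alone, its log2 fold change was 0.79. Of 20 pancreatic epithelium factors and 22 partners and co-regulators, edgeR called 0, where 4 and 5 had an unadjusted p under 0.05, with medians of -0.11 and 0.058. DESeq2 called 1 of each. The most abundant were Rbpjl, an acinar factor (log2 -0.27, edgeR adjusted p = 0.414), and Smarca4, a chromatin remodeller (log2 -0.17, edgeR adjusted p = 0.564). Ldb1, a cofactor of Isl1 in islets, had log2 0.32 (edgeR adjusted p = 0.164).

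Of 23 tested genes of beta cell products, 2 fell, none rose, and 18 had a log2 fold change below 0, with a median of -0.41. Of all 19070 genes tested, 2.65% were called lower and 1.37% higher, and 9527 had a log2 fold change below 0. With 0.1 CPM added, the median of this list in RARdn 1, 2 and 3 lay at -0.061, -0.52 and -0.61 log2 units from the control mean, and that of the 8 genes at 0.027, -0.56 and -0.48. The called genes were Ins2 and Glp1r, which encodes an incretin receptor, at 0.735, 0.848 and 0.296 CPM in RARdn 1, 2 and 3 and at 1.64, 2.47 and 2.43 CPM in controls (log2 -1.76, SE 0.39, edgeR adjusted p = 0.0456). Glp1r was not called without RARdn 1 or 2 or control 1, 2 or 3 (edgeR adjusted p from 0.0547 to 0.172). Its call was also lost with at least 1 CPM in 3 libraries (0.0642) and among protein-coding genes alone (0.0773). With the Xist term, against control 2 alone, its log2 fold change was -1.94.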

How the data were processed

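RNA extracted with RNeasy kits from 6 whole pancreata was sequenced, and 1 table of counts per gene was deposited for each. The submitters' processing notes name FastQC, cutadapt, HISAT2, HTSeq, bedtools and DESeq2 and the builds mm10 and GRCm38; for versions, annotation and strand setting nothing is given in the sources used here. The deposited counts are raw, and the 5 summary lines of each table were left out.

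Symbols were matched to GENCODE M21 (54106 of 54735). Genes kept by filterByExpr (19070) were scaled by TMM and tested with edgeR 4.0.16's quasi-likelihood test (R 4.3.3), 3 RARdn against 3 control libraries, without covariates, with Benjamini-Hochberg adjustment over all of them; calls are adjusted p under 0.05. The standard error is the log2 fold change divided by the root of F, and intervals are 95%. CPM per kb uses exon length. Ratios of counts were compared by 2-sided exact permutation tests of mean log2 values (scipy 1.17.1). Alternatives used limma 3.58.1, DESeq2 1.42.0, other scalings, filters and covariates, and left out each library. The scripts were tested on simulated data.

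The 8 genes and 20 lists were chosen with earlier results of these data known. In each related list the text names the called genes or, with none, the most abundant one. For each of the 8 it also names the gene nearest in pattern. Ins1, Neurog3, overlapping genes, Ldb1 and Scd2 are named for their known relation to a member. Precision rests on 35 counts or more for each member in RARdn libraries and 25 or more in controls. Some genes, ratios and sequences are not reported here.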

Additional observations from a re-analysis of the deposited data

How the results depend on the processing

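Each of the 8 fold changes was refitted under 17 alternatives (16 for Ucn3, which a filter of at least 1 CPM in 3 libraries removed). Pdx1, Nkx6-1, Nkx2-2, Mlxipl and Ucn3 kept their direction and stayed uncalled in all of theirs. Leaving out 1 library moved Nkx6-1 between -0.56 (without RARdn 1, adjusted p = 0.0731) and -0.059, Pdx1 between -0.40 and -0.069, Mlxipl between -0.66 and -0.22, Nkx2-2 between -0.20 and -0.11 and Ucn3 between 0.73 and 0.98. Leaving out 1 library gave log2 values of -0.53 to 0.52 for Pax4, -1.16 to -0.45 for Mnx1 and -0.78 to -0.32 for Mafa, and 0 to 2 of the 8 genes called lower; both calls came without RARdn 1. Pax4 was at -0.36 with a term for Xist. Leaving out 1 library gave log2 differences of -0.14 to 0.097 for Nkx6-1 per Pdx1, -0.40 to 0.079 for Mlxipl per Pdx1 and -0.60 to 0.23 for Pax4 per pan-endocrine count. In the related lists, 3 genes were called higher and 2 lower. These counts were 1 and 4 with scaling to pan-endocrine genes, 5 and 6 without a filter, and 1 and 0 with at least 1 CPM in 3 libraries. They were 1 and 0 among protein-coding genes, 5 and 7 by DESeq2, and 0 to 11 in either direction without 1 library. The cause was not tested. Over all genes, 767 were called, against 100 without control 2, 2980 without RARdn 3 and 1946 by DESeq2. Scaling to pan-endocrine genes moved the median of all genes to -0.12; relative to it Mnx1, at -0.80, and Ucn3, at 0.77, kept their side.

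Deviations of libraries with the same replicate number correlated at 0.013, -0.014 and 0.13, so the numbers were not taken to pair samples. With the replicate number as a block, 817 genes were called, and no call among the 8 changed (Mafa -0.53, adjusted p = 0.102; Mnx1 -0.78, adjusted p = 0.198). With standard errors of 0.30 for Ucn3 and 0.34 for Mnx1, small changes of these genes could not be detected. Their counts were 25 to 169 per library, and the parts of depth and of spread among libraries were not tested.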
